A study of Homo sapiens with 8 samples.

Results

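The comparison described is GSK126 against its vehicle DMSO in the arrays labelled SUP-B8, a human acute lymphoblastic leukaemia line. It rests on 4 of the 8 Affymetrix arrays of the series, 2 per treatment. It is described across the 41097 of 54675 probe sets to which the platform annotation gives 1 gene symbol, including those that are dim under DMSO. They stand for 19775 genes, of which 10523 are read by 2 or more probe sets. Treated cultures received 0.5 uM GSK126 over 72 hours, and control cultures received DMSO alone over the same time. The other 4 arrays hold the same treatments in a line labelled NALM-6. They enter only through the shared estimate of the spread and through the test of a difference between the lines. The labels call the replicates biological and do not give the EZH2 genotype of either line. The title of the series concerns an EZH2 substitution and raised trimethylation of lysine 27 on histone H3.

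EZH2 is the catalytic subunit of the Polycomb repressive complex PRC2, which trimethylates lysine 27 of histone H3. The mark is laid down preferentially around CpG-rich promoters and accompanies silencing, and in B cells EZH2 is abundant in precursors and germinal-centre cells. GSK126 competes with the methyl donor, so it blocks the enzyme without removing the protein, and the mark is then diluted as cells divide.

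Replicate arrays correlated at r = 0.998 in both SUP-B8-labelled groups. These arrays carried the defining genes of a B-cell precursor under DMSO: DNTT (terminal transferase) averaged 13.67 ± 0.13, VPREB1 (surrogate light chain) 13.35 ± 0.03, RAG1 10.57 ± 0.12 and EBF1 13.27 ± 0.01 (log2 values, SD, n = 2). In the arrays labelled NALM-6, a line commonly described as expressing terminal transferase, DNTT averaged 6.86 ± 0.04, below the array medians. VPREB1 (6.02 ± 0.15) and RAG1 (5.45 ± 0.24) lay below them there too, whereas EBF1 averaged 12.14 ± 0.02. Whether the line labels are right was not tested, so groups are called by their labels, also where the lines are compared. Every log2 difference below comes from SUP-B8-labelled arrays alone unless the other line is named. No detection calls were used here. A group with both arrays below their array medians (7.19 to 7.21 in the 4 arrays) was therefore not taken to be above background. For a rise from such a level the text prints a bound, the GSK126 mean minus the DMSO arrays' medians, worded as at least. If both groups lay below, it prints levels without a size. The limit is approximate: of 36 genes of non-blood tissues on the array, 24 lay below it, and their DMSO levels ran from 4.65 to 10.25.

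The response was small and mainly upward. In bulk RNA, fewer cells with a transcript and less of it per cell cannot be told apart. In the fit of every probe set (limma, adjusted p under 0.05), 220 of 41097 were called, which is 0.535%. Of these, 202 (0.492%) were higher and 18 (0.0438%) lower under GSK126. At an unadjusted p under 0.05 the directions were even, 2441 higher and 2539 lower. The excess of rises lay in the larger differences: 252 probe sets differed by at least 0.5 upward and 27 downward, and 51 against 2 by at least 0.75. The median over all probe sets was -0.02. By level over all 41097, split into 4 equal bins, the calls upward numbered 25 in the lowest bin, 43 and 93 in the next ones and 41 in the highest. Falls numbered 6, 5, 2 and 5 in the same order. The treatments' arrays did not overlap in 44.0% of all probe sets.

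**Figure D1:**
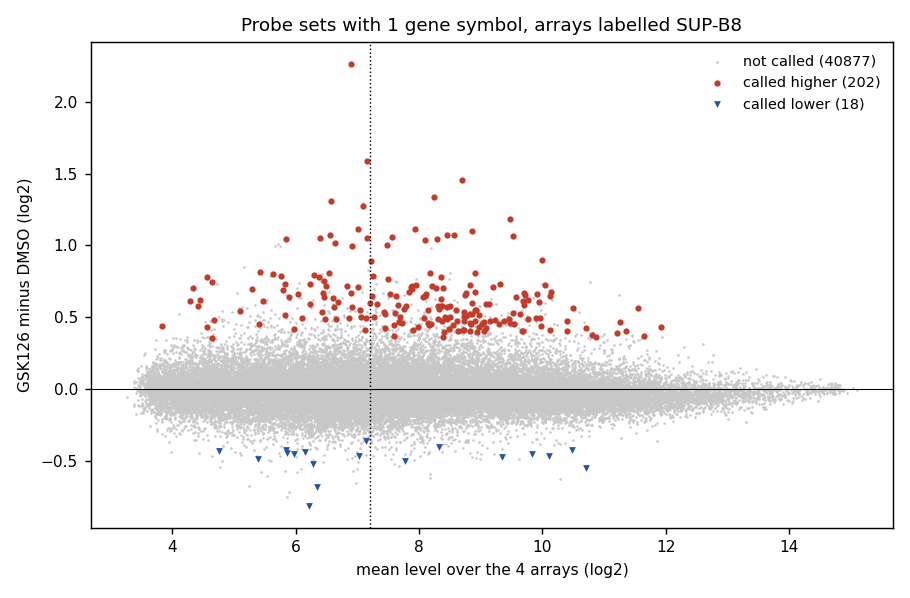
Difference between GSK126 and DMSO (vertical axis, log2) against the mean level over the 4 SUP-B8-labelled arrays (horizontal axis, log2) for 41097 probe sets. Red points are the 202 called higher, blue triangles the 18 called lower, grey points the rest, and the dotted line is the mean of the array medians. The largest differences are upward and are found on both sides of the dotted line.

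With 1 probe set standing for each gene and a filter on dim ones, 296 of 13161 genes were called (2.25%), 252 higher (1.91%) and 44 lower (0.334%). The treatments' arrays did not overlap in 49.5% of these genes. Both fits made use of the NALM-6-labelled arrays for the spread. Without them 191 genes and 48 probe sets were called. One array weighed most: 27 genes and 21 probe sets were called without GSK126 replicate 1, and 72 and 23 without GSK126 replicate 2. Without DMSO replicate 1 the counts were 136 and 58, and without DMSO replicate 2 they were 94 and 33. Across all 8 omissions 23 genes stayed called. The gene fit and the probe set fit did not name the same genes. The 220 called probe sets belonged to 188 genes, of which 117 were called in the gene fit and 22 were not tested there, and 104 of the 220 were not the probe set that stood for their gene.

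Agreement between probe sets was the strictest view of the response. In 22 genes at least 2 probe sets were called the same way, all of them higher, and in 0 genes were probe sets called in opposite directions by limma. Calls came from 2 probe sets in 15 of these genes, from 3 in 4 genes (PHLDA1, NKAIN4, HLA-DQB1 and LAPTM4B) and from 4 in 3 genes (MS4A1, RHOBTB3 and PDLIM5). Every probe set on the array was called for CD96, MS4A1, MAN1A1, ID2 and ACSL1. With only the 4 SUP-B8-labelled arrays in the fit, 5 genes kept 2 called probe sets, namely CD96, FNIP2, MAN1A1, MS4A1 and PCDH9. Leaving out 1 of these 4 arrays left between 2 and 4 genes, and CD96 and MS4A1 were among them each time.

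Genes are ordered by the kind of protein they encode, a grouping made after seeing the calls and not tested. CD96, an immunoglobulin-family receptor best known from T and NK cells, read 8.14 and 7.80 on the DMSO arrays and 9.44 and 9.40 on the GSK126 arrays in its brighter probe set (206761_at). Its other probe set (1555120_at) read 6.44 and 6.29 under DMSO and 7.98 and 7.93 under GSK126. In both, each treated array lay above each control array, by far more than replicates differed, where 44.0% of all probe sets did not overlap. The rises were 1.45 ± 0.10 (SE, adjusted p = 0.00146) and, from a level below the medians, at least 0.75 (adjusted p = 0.00111). Of 27 markers of T and NK cells on the array, 17 were tested, 0 were called by limma and 2 had an unadjusted p under 0.05. Over all 13161 genes tested, 2.25% were called and 2198 had such a p. The 17 differences ran from -0.39 to 0.52, 10 of the 27 markers lay below the medians under both treatments, and the DMSO levels ran from 4.20 to 9.77. Their part in the rise of CD96 was not tested. CD3E, a chain of the T-cell receptor complex, read 8.22 and 8.03 under DMSO and 8.16 and 8.10 under GSK126.

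MS4A1 encodes CD20, a membrane protein that appears as B cells mature. Its probe set 228592_at read 7.54 and 7.61 under DMSO and 8.93 and 8.89 under GSK126, a rise of 1.34 ± 0.07 (SE, adjusted p = 6.72e-04). The probe sets 210356_x_at and 217418_x_at rose by 1.07 ± 0.07 each, from DMSO means of 8.03 ± 0.10 and 7.92 ± 0.00 (SD, n = 2). The fourth, 228599_at, was called higher with both treatments below the medians, at 5.79 and 5.93 against 6.63 and 6.55. All 4 probe sets thus separated the treatments without overlap, as 44.0% of all probe sets did, and they read the same 4 arrays. The 3 brighter ones stayed called whichever array was left out.

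IGHD, the constant region of the delta heavy chain, was called in 2 of 5 probe sets. The brighter, 213674_x_at, read 9.20 and 9.31 under DMSO and 9.94 and 9.86 under GSK126, a rise of 0.64 ± 0.07 (SE, adjusted p = 0.0140). Of the 3 others, 214973_x_at went slightly the other way, at -0.05 ± 0.09 (SE), and was not called. Immunoglobulin probe sets can share sequence with other heavy-chain segments, so this value may not belong to IGHD alone. PCDH9, a protocadherin, read 9.67 and 9.69 under DMSO and 10.43 and 10.37 under GSK126 (219737_s_at, 0.72 ± 0.06, SE, adjusted p = 0.00529). A second PCDH9 probe set rose by 0.81 ± 0.12, and its other 2 lay below the medians and were not called. NKAIN4, a membrane protein that binds the sodium pump, rose in 3 of 4 probe sets, by 0.47 to 0.67, and the fourth differed by 0.77 ± 0.20 (SE) without a call.

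CNR1, the CB1 cannabinoid receptor, shows a case without a size. Its called probe set 213436_at read 5.89 and 5.87 under DMSO and 6.92 and 6.93 under GSK126, and 1560225_at read 6.64 and 6.59 against 7.13 and 7.10. Replicates were nearly equal and the treatments well apart, yet all 8 readings lay below the array medians. The CNR1 probe set that did lie above them, 207940_x_at, differed by 0.28 ± 0.10 (SE) and was not called.

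**Figure D2:**
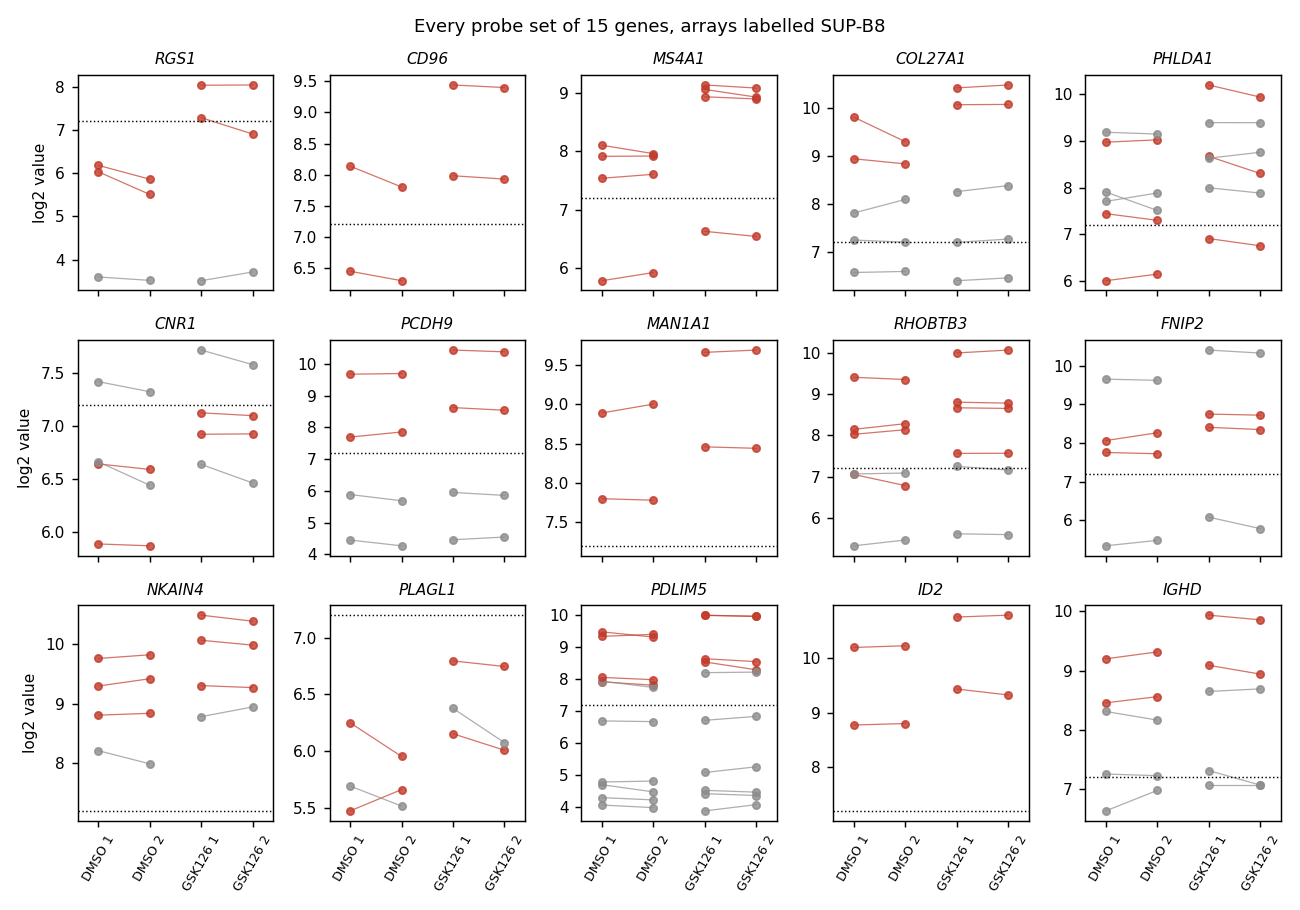
Log2 value (vertical axis) on each of the 4 SUP-B8-labelled arrays (horizontal axis) for every probe set of the 15 genes with the highest mean fitted difference over 2 or more called probe sets. Red marks called probe sets, grey those not called, lines join the 2 replicates of a treatment, and the dotted line is the mean of the array medians. CD96, MS4A1, MAN1A1 and ID2 have red points only, whereas most grey probe sets of the other genes lie low.

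RGS1 speeds the shut-off of G-protein signals from chemokine receptors. Its probe set 216834_at read 6.03 and 5.51 under DMSO and 8.03 and 8.04 under GSK126, so the rise was at least 0.83 (adjusted p = 0.00106). A second, 202988_s_at, was also called, at 6.18 and 5.86 against 7.28 and 6.90, but its GSK126 mean did not pass the medians. The third lay between 3.51 and 3.72 on all 4 arrays. Under DMSO, RGS1 lay below the array medians in every probe set.

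RHOBTB3 rose in 4 of 6 probe sets. In the brightest, 225202_at, the arrays read 9.41 and 9.36 under DMSO and 10.01 and 10.08 under GSK126, a rise of 0.65 ± 0.06 (SE, adjusted p = 0.00833). Its other measured rises were 0.58 ± 0.08 and 0.58 ± 0.09 (SE), and 216048_s_at rose from below the medians by at least 0.36. The 3 measured probe sets of RHOBTB3 thus gave sizes from 0.58 to 0.65. PDLIM5, a PDZ and LIM domain scaffold at actin fibres, rose in 4 of 10 probe sets by 0.55 to 0.61. Of its 6 others, 5 lay below the medians under both treatments, and 211681_s_at differed by 0.37 ± 0.09 (SE) without a call.

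PHLDA1, a pleckstrin homology-like protein induced by growth signals, was called in 3 of 6 probe sets although the gene fit did not call it. Probe set 217996_at read 8.97 and 9.02 under DMSO and 10.19 and 9.93 under GSK126 (1.07 ± 0.16, SE, adjusted p = 0.0334). The probe set that stood for the gene, 217998_at, read 9.18 and 9.14 against 9.39 and 9.38 and differed by 0.22 ± 0.09 (SE, adjusted p = 0.378). The choice of probe set thus decided the call of this gene. FNIP2, a partner of folliculin in nutrient sensing, rose by 0.57 ± 0.09 and 0.64 ± 0.11 (SE) in 2 of 4 probe sets. Its brightest probe set, 225922_at, differed by 0.73 ± 0.14 (SE) and was not called.

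Among regulators of transcription, ID2 binds E proteins and keeps them off DNA. Its probe set 201565_s_at read 10.20 and 10.23 under DMSO and 10.76 and 10.79 under GSK126, a rise of 0.56 ± 0.06 (SE, adjusted p = 0.0146), and the other rose by 0.59 ± 0.06. The zinc-finger factor PLAGL1 was called in 2 of 3 probe sets with all levels below the medians, from 5.47 to 6.79. MAN1A1, a mannosidase that trims N-glycans in the Golgi, averaged 8.95 ± 0.08 under DMSO and 9.68 ± 0.02 under GSK126 (SD, n = 2), a rise of 0.73 ± 0.07 (SE, adjusted p = 0.00895), and its other probe set rose by 0.66 ± 0.06. COL27A1, a fibrillar collagen chain, rose by 1.18 ± 0.15 and 0.89 ± 0.14 (SE) in 2 of 5 probe sets, and its other 3 differed by -0.15 to 0.37. In the brighter COL27A1 probe set the DMSO arrays themselves stood apart, at 9.80 and 9.29.

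In the remaining 7 genes with 2 or more called probe sets, the called ones that were measured under both treatments rose by 0.36 to 0.56. They were the MHC class II chain HLA-DQB1, the homeobox factor ZFHX3, the histone H3 lysine 9 demethylase KDM4B, the complement inhibitor CD59, the ubiquitin ligase adaptor NDFIP1, the acyl-CoA synthetase ACSL1 and the lysosomal membrane protein LAPTM4B. For HLA-DQB1, 2 of the 3 called probe sets lay below the medians under both treatments, and HLA probe sets can read several paralogs. Without probe sets whose name ends in _x_at, which may hybridise to other transcripts, 17 of the 22 genes kept 2 calls, an alternative chosen after seeing the data.

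Promoter sequence was examined because PRC2 acts at CpG-rich DNA. The 250 bases before the RefSeq start site of 4 of these genes are printed 5′ to 3′ with each CG in capitals, 2 with few CG and 2 with many more, chosen after the counts were seen (GRCh38.p14). They are CD96 (chr3:111541947-111542196, plus strand), RGS1 (chr1:192575523-192575772, plus strand), RHOBTB3 (chr5:95731086-95731335, plus strand) and PHLDA1 (chr12:76031777-76032026, minus strand).
CD96: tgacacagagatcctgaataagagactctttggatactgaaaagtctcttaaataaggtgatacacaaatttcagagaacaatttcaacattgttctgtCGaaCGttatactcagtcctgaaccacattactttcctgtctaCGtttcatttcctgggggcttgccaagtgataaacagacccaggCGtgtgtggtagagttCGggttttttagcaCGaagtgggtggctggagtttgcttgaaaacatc
RGS1: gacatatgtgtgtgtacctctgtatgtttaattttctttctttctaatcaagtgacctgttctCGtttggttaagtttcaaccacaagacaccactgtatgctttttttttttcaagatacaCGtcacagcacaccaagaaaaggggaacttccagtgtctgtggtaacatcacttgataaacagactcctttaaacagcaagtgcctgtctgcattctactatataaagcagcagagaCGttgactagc
RHOBTB3: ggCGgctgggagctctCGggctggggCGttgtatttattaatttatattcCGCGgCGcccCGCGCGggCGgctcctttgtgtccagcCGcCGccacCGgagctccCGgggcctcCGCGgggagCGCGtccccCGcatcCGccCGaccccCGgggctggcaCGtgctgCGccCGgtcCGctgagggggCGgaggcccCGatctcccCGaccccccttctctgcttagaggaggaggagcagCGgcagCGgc
PHLDA1: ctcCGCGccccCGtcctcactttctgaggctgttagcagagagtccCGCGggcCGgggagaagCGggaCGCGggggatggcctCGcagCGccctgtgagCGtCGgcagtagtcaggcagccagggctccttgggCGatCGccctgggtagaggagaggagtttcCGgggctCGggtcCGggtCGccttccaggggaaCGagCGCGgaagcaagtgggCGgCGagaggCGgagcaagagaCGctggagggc
CG occurred 6 and 3 times before the start sites of CD96 and RGS1, against 31 and 26 times for RHOBTB3 and PHLDA1. CG reads the same on both strands, so 1 count serves both.

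Counted over the whole 300-base window, which adds 50 bases after the start, 14 of 18 matched genes with 2 or more called probe sets held at least 15 CG (77.8%). Of all 10568 matched genes tested, 78.0% did, so the members were like the background. Of all 27305 RefSeq promoters, 48.8% held at least 15, and 95.8% held at least 1. The called higher genes stood at 79.4% of 204. The called lower genes stood at 45.5% of 33, with a median of 13 CG against 31.5 in those called higher. A count of CG describes the sequence only, and methylation of the histone was not measured.

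Genes that are dim under DMSO were a question of their own, because PRC2 targets are often silent. On both DMSO arrays 17886 probe sets lay below the median, and 70 of them (0.391%) were called higher and 9 lower. Over all 41097 probe sets 0.492% were called higher and 0.0438% lower, so rises were no more frequent among the dim ones. Of the 70, 43 stayed below the medians under GSK126 too. From below the median on both DMSO arrays to above it on both GSK126 arrays went 146 probe sets, of which 23 were called. In the other direction went 121, of which 2 were called. For 7161 genes every probe set was dim on both DMSO arrays.

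Among the 23, the small GTPase RAB31 had the highest bound. Its probe set 217764_s_at read 6.91 and 7.17 under DMSO and 8.14 and 8.06 under GSK126, a rise of at least 0.90 (adjusted p = 0.0121). The 2 other RAB31 probe sets also lay below the medians under DMSO and above them under GSK126, with bounds of 0.24 and 0.42, and were not called. TGFA, a ligand of the EGF receptor, read 6.89 and 7.06 against 7.73 and 8.23, at least 0.78 higher (adjusted p = 0.0332). Its replicates under GSK126 were far apart, and its 2 other probe sets, which were measured under both treatments, differed by 0.07 and 0.14 without a call.

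KLHL14, a kelch-family protein of B cells, read 6.59 and 6.33 under DMSO and 7.77 and 7.70 under GSK126 (228377_at, at least 0.53, adjusted p = 0.00222). ZIC2, a zinc-finger factor of neural development, read 6.95 and 6.77 against 7.58 and 7.73, at least 0.45 higher (adjusted p = 0.0119). CD200, an immunoglobulin-family ligand that restrains myeloid cells, read 6.60 and 6.94 against 7.78 and 7.54, at least 0.46 higher (adjusted p = 0.0389). In each of these the 2 treatments were separated by more than the gap between replicates. ARHGEF40 (at least 0.68), the RAF-MEK scaffold KSR1 (0.51), the actin-capping TMOD2 (0.49), the tetraspanin partner PTGFRN (0.47) and RHOU (0.42) completed the 12 named. The KSR1 and TMOD2 probe sets lay just under the limit before treatment, at 7.14 to 7.19. Brighter probe sets of KLHL14, ARHGEF40, KSR1 and PTGFRN were measured under both treatments, so these genes were not dim under DMSO in every probe set. Their DMSO means were 7.63, 7.77, 7.61 and 8.09, and they differed by 0.16, 0.32, -0.01 and 0.23 without a call. Of the 12 named, the called RGS1, CD96 and KLHL14 probe sets stayed called whichever array was left out.

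**Figure D3:**
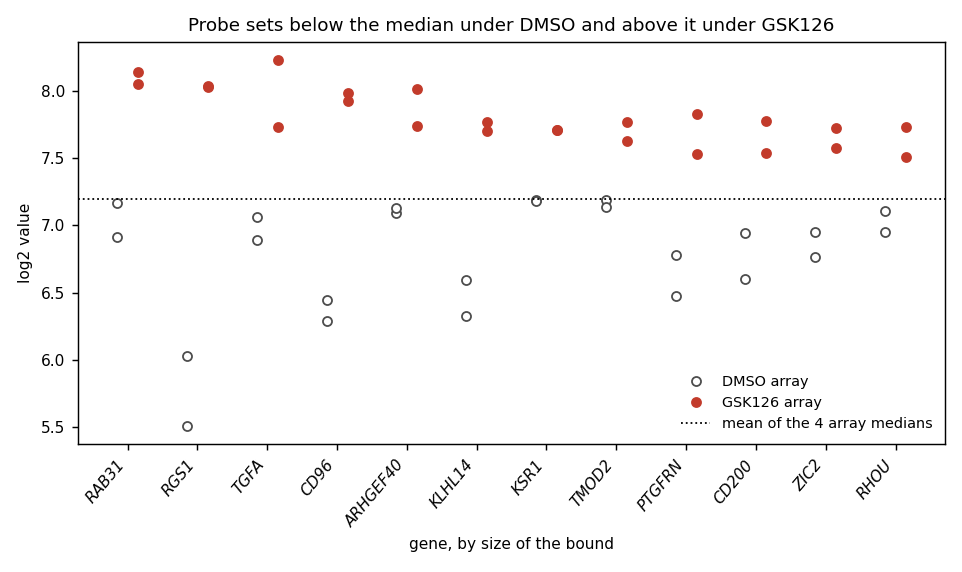
Log2 value (vertical axis) of 12 called probe sets that lay below the array medians on both DMSO arrays (open circles) and above them on both GSK126 arrays (filled red circles), ordered by the bound from RAB31 (0.90) to RHOU (0.42). The dotted line is the mean of the 4 array medians. RGS1 starts lowest, and KSR1 and TMOD2 start just under the line.

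Downward, PCYOX1, a prenylcysteine oxidase, read 7.30 and 7.24 under DMSO and 6.83 and 6.77 under GSK126 in probe set 203803_at. It fell by at least 0.07. Its brighter probe set, 225274_at, read 10.32 and 10.34 against 10.26 and 10.12 and was not called. OCIAD2 read 7.32 and 7.32 against 6.95 and 6.96, a fall of at least 0.13. Both calls of the probe set fit were lost in all 8 omissions. Promoters of the 20 matched genes that crossed the median upward with a call held at least 15 CG in 90.0% (18 of 20), with a median of 35.5. Of all matched genes on the array 66.4% did, and of those tested in the gene fit 78.0%. Of the 5225 matched genes with every probe set dim on both DMSO arrays 42.7% did, but those need not rise above the median under GSK126. These differences were not tested.

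Probe sets of one gene did not always tell the same story. Taking each called gene's standing probe set and its companions, 368 of 454 companions of raised genes had the same sign (81.1%), against 63.1% over all tested genes. Their median difference was 0.17 where that of the standing probe sets was 0.41. Restricted to companions above the median on at least 2 arrays, 248 of 282 agreed in sign (87.9%, against 67.5% over all tested genes). Companions of lowered genes shared the sign in 37 of 48 (77.1%), and in 27 of 30 (90.0%) with the same restriction. A companion was itself called the same way in 29 of the 183 raised genes that had one and in 1 of 23 lowered genes. Over all 8416 tested genes with a companion, this held for 70.

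**Figure D4:**
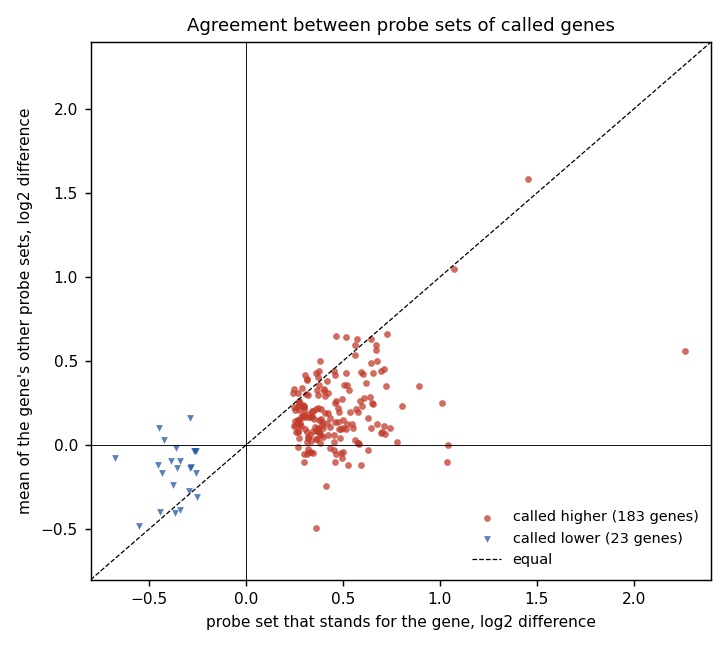
Mean log2 difference of a gene's other probe sets (vertical axis) against that of the probe set that stands for it (horizontal axis), for 183 called higher genes (red circles) and 23 called lower genes (blue triangles) with 2 or more probe sets. The dashed line marks equal values. Most red points lie above 0 and below the dashed line.

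By fitted differences, the widest gaps between probe sets of one gene were those of RGS1, BEND7, KLHL14, TOX, MTSS1 and MCC. In RGS1, BEND7, KLHL14 and MCC the called probe set lay below the medians under DMSO, so these gaps have no measured size and no order. TOX, a high-mobility-group factor of lymphocyte development, read 7.63 and 7.53 under DMSO and 8.64 and 8.60 under GSK126 in probe set 204529_s_at (1.04 ± 0.06, SE, adjusted p = 0.00106). The other TOX probe set lay below the medians on all 4 arrays, at 5.75 to 6.13. For MTSS1, an actin-binding protein of the membrane cortex, 203037_s_at read 7.94 and 7.62 against 8.84 and 8.80 (1.04 ± 0.12, SE, adjusted p = 0.0146). The 4 other MTSS1 probe sets, at DMSO means of 5.79 to 7.21, differed by -0.04 to 0.09. BEND7 rose in 227341_at by at least 0.03, and its 2 other probe sets lay below the medians. MCC was called higher in a probe set that read 5.33 and 5.30 against 6.47 and 6.26, below the medians, while its brighter one differed by 0.13 ± 0.08 (SE).

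Ordered by pathway, the Polycomb machinery itself showed no called change. By limma 0 of 13 PRC2 genes were called, and 0 had an unadjusted p under 0.05, with a median difference of -0.02 and a range of -0.14 to 0.10. EZH2 read 11.13 and 11.28 under DMSO and 11.22 and 11.18 under GSK126, so its treatments overlapped. Of the other core genes, EED differed by 0.00 ± 0.05, SUZ12 by -0.06 ± 0.05 and EZH1, the paralog of EZH2, by 0.08 ± 0.05 (SE). PRC1 (0 of 15 called, median 0.05) and the enzymes that remove or oppose the mark (0 of 17, median -0.05) were likewise without a call by limma, with 6 and 1 members at an unadjusted p under 0.05. The median over all 13161 genes was -0.02. Of these genes 2.25% were called by limma and 2198 had an unadjusted p under 0.05, so 0 calls in lists this short lie near the background.

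Several gene lists of B-cell biology held called members, nearly all upward. Over all 13161 genes tested, 1.91% were called higher and 0.334% lower. Among B-lineage transcription factors 5 of 30 rose and 0 fell: TOX, ID2, SPIB, IKZF3 and BCL6. SPIB, an ETS factor of B cells, read 9.20 and 9.32 under DMSO and 9.82 and 9.76 under GSK126 (0.53 ± 0.06, SE, adjusted p = 0.00744). The other SPIB probe set had a fitted difference of the opposite sign, -0.12. IKZF3, the zinc-finger factor Aiolos, rose by 0.46 ± 0.06 (SE, adjusted p = 0.0108). BCL6, the repressor that maintains germinal-centre cells, read 11.37 and 11.40 against 11.75 and 11.70 (0.34 ± 0.05, SE, adjusted p = 0.0151). When the mean of its probe sets stood for each gene, SPIB and BCL6 lost their calls, and TOX, ID2 and IKZF3 kept theirs. The median of all 30 was 0.01, and 16 of the 30 differences were positive.

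Plasma-cell genes rose in 3 of 16 (median 0.06), namely JCHAIN, SDC1 and ELL2, where 1.91% of all genes were called higher. JCHAIN, which joins immunoglobulin multimers, read 10.15 and 10.37 against 10.82 and 10.79 (0.55 ± 0.09, SE, adjusted p = 0.0314), while the elongation factor ELL2 stayed below the medians. Genes of B-cell receptor signalling rose in 3 of 23 (median -0.03), IGHD, the adaptor BANK1 below the medians, and the kinase FYN (0.27 ± 0.05, SE, adjusted p = 0.0474). Mature surface genes rose in 1 of 27, MS4A1, with a median of 0.06. Early B-cell and recombination genes rose in 1 of 23, the receptor kinase KIT, which read 7.02 and 7.38 against 7.86 and 7.86 (0.66 ± 0.10, SE, adjusted p = 0.0201). Precursor and mature genes thus both held single risers beside many members without a call. In these lists FYN lost its call in all 8 omissions, and SPIB, IKZF3, BCL6, JCHAIN, SDC1, ELL2, BANK1 and KIT lost theirs without GSK126 replicate 1, most of them also without another array.

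Germinal-centre genes held calls in both directions, 2 higher and 1 lower of 20, where 1.91% of all genes were called higher and 0.334% lower. RGS13 was higher with both treatments below the medians, and TNFRSF14, a TNF-family receptor, fell by 0.27 (log2, SE 0.05, adjusted p = 0.0481), a call lost in every omission. Regulators and receptors of G-protein signalling were the list with the most falls, 3 higher and 3 lower of 25, with a median of -0.08. Upward were RGS1, RGS13 and RGS2, which read 8.04 and 8.08 under DMSO and 8.58 and 8.55 under GSK126 (0.50 ± 0.08, SE, adjusted p = 0.0255). Downward were the G-protein-coupled oestrogen receptor GPER1, the lymphocyte receptor GPR18 and the leukotriene receptor CYSLTR1, the last below the medians. GPER1 read 10.97 and 11.00 against 10.42 and 10.44, and GPR18 10.63 and 10.76 against 10.29 and 10.24, so neither overlapped between treatments, as in 49.5% of all genes tested. The GPER1 call of the gene fit was kept in all 8 omissions. That of GPR18 was lost without DMSO replicate 2 or either GSK126 array, and that of CYSLTR1 without either GSK126 array. CYSLTR1 also lost its call when the mean of its probe sets stood for the gene. RGS2 lost its call without any of the 4 SUP-B8-labelled arrays in turn, and RGS13 without GSK126 replicate 1.

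Adhesion and migration genes rose in 6 of 25, with 0 lower and a median of 0.03, where 1.91% of all genes were called higher: CD96, MTSS1, COL27A1, CD99, ITGA6 and NECTIN2. Several members of these lists were entered with their results known, among them CD96, MTSS1, COL27A1, TOX, GPER1, GPR18, CYSLTR1 and EBI3, so the counts are no independent evidence of a direction. CD99, a membrane glycoprotein of lymphocyte adhesion, read 8.69 and 8.32 under DMSO and 9.30 and 9.33 under GSK126 (0.81 ± 0.10, SE, adjusted p = 0.0108). The calls of CD99 and COL27A1 were lost without either GSK126 array, and that of MTSS1 without GSK126 replicate 1. MTSS1 also lost its call when the mean of its probe sets stood for the gene.

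Genes described in cancer studies as EZH2-silenced rose in 2 of 20 tested, KLF2 and TNFRSF21, with a median of 0.00, where 1.91% of all genes were called higher. The call of TNFRSF21 was lost in 6 of 8 omissions, and that of KLF2 without GSK126 replicate 1. KLF2, a factor of lymphocyte quiescence and trafficking, read 8.05 and 7.80 against 8.62 and 8.64 (0.70 ± 0.08, SE, adjusted p = 0.00734). The other KLF2 probe set had a fitted difference of 0.08 without a call. Of 52 developmental transcription factors on the array, 34 were dim under DMSO and the same number were dim under GSK126. Among the 21 tested, ZIC2 and MEIS2 rose, MEIS2 with all 4 arrays below the medians, at 5.88 to 6.72. The median of that list was 0.00, close to that of all genes.

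Many processes were without a call in the gene fit by limma. These were proliferation and DNA replication (0 of 34, range -0.15 to 0.08), cell-cycle inhibitors and D cyclins (0 of 17), the BCL2 family (0 of 19), MHC class I and antigen processing (0 of 18), MHC class II (0 of 17), MYC and ribosome biogenesis (0 of 20) and cholesterol synthesis (0 of 19). At an unadjusted p under 0.05 the counts were 0, 3, 6, 2, 7, 6 and 5 in the same order. Of all 13161 genes tested, 2198 had such a p. By limma 2.25% of them were called, so 0 calls in lists this short lie near that share. In the probe set fit, 3 probe sets of HLA-DQB1 and 1 of CCND2, a D cyclin, were called higher, the last below the medians. In the p53 list 1 of 20 rose, TP53INP1 (0.45 ± 0.06, SE, adjusted p = 0.0151), a call lost without either DMSO array or GSK126 replicate 1. The other TP53INP1 probe sets averaged 0.02, and the call was also lost when the mean of all its probe sets was used. Interferon response genes held 1 fall in 35, OAS2, and the endoplasmic reticulum stress list 1 in 27, PSPH, an enzyme of serine synthesis that fell by 0.35 (log2, SE 0.06, adjusted p = 0.0207). Kruppel-like factors held 1 rise in 11, KLF2, and the NF-kB list 1 fall in 25, EBI3, below the medians, a call lost in 5 of 8 omissions. The calls of OAS2 and PSPH were lost without any of the 4 SUP-B8-labelled arrays in turn. PSPH also lost its call when the mean of its probe sets stood for the gene. Myeloid markers were called in 0 of 6 tested, and 17 of the 23 on the array lay below the medians under both treatments.

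**Figure D5:**
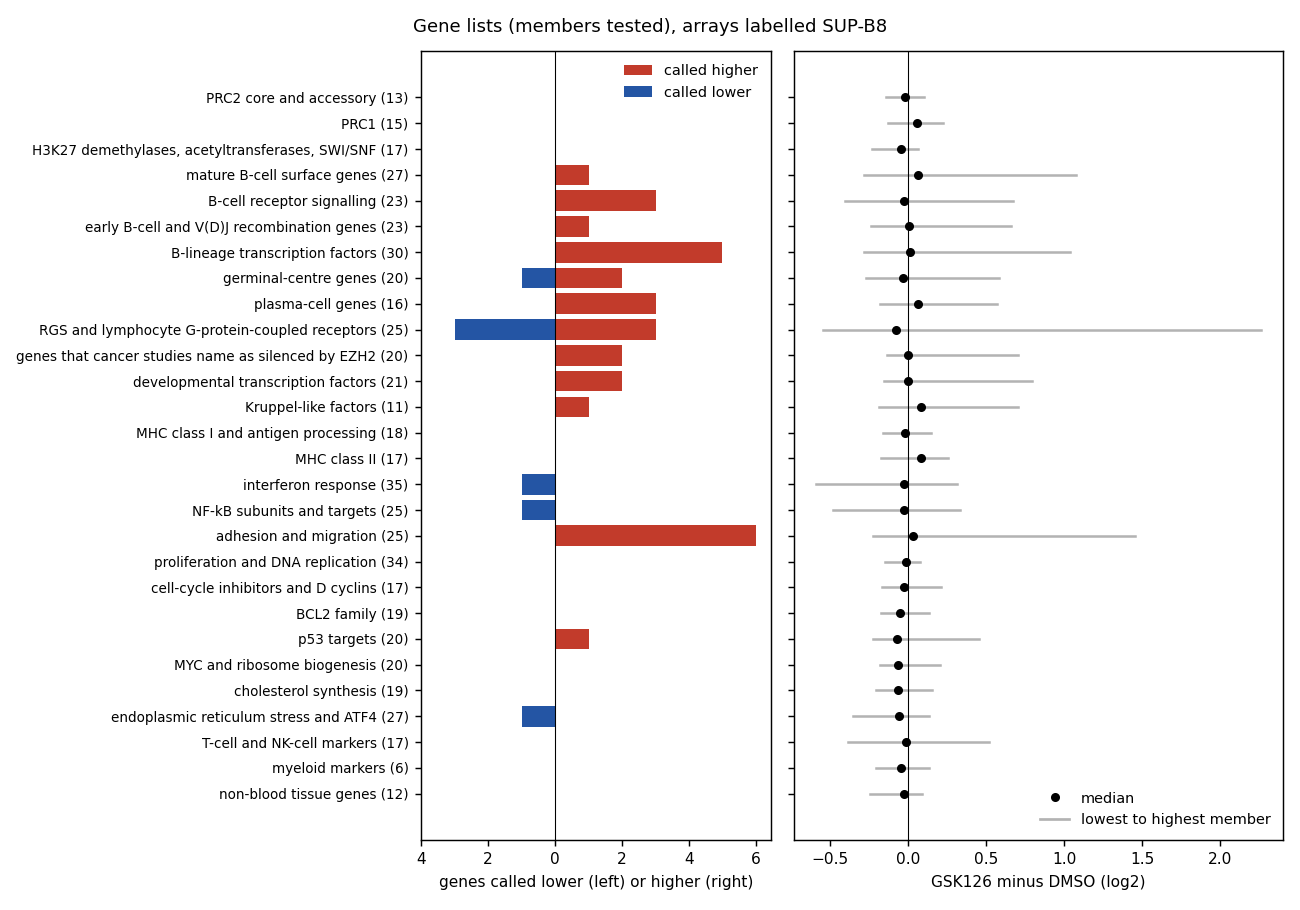
For 28 gene lists with the number of members tested in brackets, the left panel gives the genes called lower (blue, to the left) and higher (red, to the right) and the right panel the median (black point) and range (grey line) of the log2 difference between GSK126 and DMSO. Adhesion and B-lineage factor lists hold 6 and 5 called higher, the G-protein list 3 in each direction, and all medians lie between -0.08 and 0.08.

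Finally, the response was set beside that of the arrays labelled NALM-6, which share no controls with it. Of the 252 genes raised in SUP-B8-labelled arrays, 123 (48.8%) were also called higher there, where 20.8% of all genes were, and they made up 4.49% of the genes raised in that line. Another 46 (18.3%) were called lower there, close to the 18.5% of all genes. Both responses use the shared estimate of the spread, so calls in the 2 lines are not independent. The difference between the 2 responses was itself called in 165 of the 252 (65.5%), against 25.4% of all genes tested. The 252 were chosen by their response in SUP-B8-labelled arrays, which is part of that difference, so these shares are not directly comparable. Raised genes also differed in their starting level more often than others: under DMSO 18.3% were at least 2 log2 units higher in the NALM-6-labelled arrays and 16.7% at least 2 lower, against 3.84% and 3.60% of all genes. PDLIM5 and PCDH9 were called higher in both lines, and the difference was not called (-0.20 ± 0.08 and -0.17 ± 0.08, SE), with the DMSO mean of PCDH9 in the arrays labelled NALM-6 below the medians. MAN1A1 rose in both and by less in the arrays labelled SUP-B8.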

How the data were processed

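RNA of the 8 cultures had been hybridised to Affymetrix HG-U133 Plus 2.0 arrays. The authors deposited 1 log2 value per probe set and array, and the submitters' processing notes name MAS5 and RMA. Their roles and versions are not given in the sources used here. Array medians ranged from 7.18 to 7.24, so a shift of all transcripts at once may not show, and the values were used as they stand. With so few arrays, precision is limited by their number.

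Probe sets with 1 symbol were fitted with limma (version 3.58.1, R 4.3.3) using 4 group means, 4 residual degrees of freedom, moderated variances and Benjamini-Hochberg adjustment over all features tested. For the gene fit a gene was represented by its probe set of highest mean over the 8 arrays, and tested if at least 2 arrays lay above their medians. With 2 arrays against 2, the smallest two-sided p of an exact permutation test is 0.333, and calls therefore rest on the model. Named genes were the 15 highest with 2 or more called probe sets, 12 and 6 at most that crossed the medians, the 10 highest and 10 lowest of the gene fit, up to 4 called members of each of 28 lists and 6 with the widest gap between probe sets. Members, lists and tests were chosen with earlier results of these data known. On simulated data (means of 5 simulations) the gene fit recovered 78.6% of log2 changes of 0.5 and 97.6% of 1, with 5.08% of calls false. The probe set fit recovered 46.8% and 88.2%, with 3.58% false. The simulated noise was normal and independent between genes and arrays, and changes were split evenly up and down. These shares therefore need not hold for the real calls. Promoters came from RefSeq (GRCh38.p14). Python version 3.11.15 prepared the tables.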

Additional observations from a re-analysis of the deposited data

Results flagged for a closer look

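For 43 genes with 2 or more called probe sets, a crossing of the array medians or the largest differences of the gene fit, the response in the arrays labelled SUP-B8 was compared with that in those labelled NALM-6. The difference of the responses, SUP-B8 minus NALM-6, was tested in 42 and called by limma in 29, of which 19 were positive and 10 negative. Values are fitted log2 differences of the probe set that stands for the gene. Where levels in either line lay below the medians they are no measured sizes. The difference was called in 25.4% of all genes tested, and its cause was not tested. The 43 genes were chosen by their response in the arrays labelled SUP-B8, which is part of the difference, so the shares are not directly comparable.

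RGS1 had the largest fitted value, 4.34, as it fell from 12.46 to 10.39 in the arrays labelled NALM-6 while rising in the others. MS4A1 (2.03), TOX (1.76), ZIC2 (1.43) and ID2 (1.19) also moved in opposite directions in the 2 lines, each called in both. Both lines fell for GPR18 (1.25), less in the arrays labelled SUP-B8. GPER1 (-1.44) and IGHV5-78 (-1.31) fell in the arrays labelled SUP-B8 and rose in the others, and TRIM55 (-1.97) did so with its SUP-B8 levels below the medians.

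With levels above the medians in both lines, MTSS1 (1.13), CD99 (1.03) and IGHD (0.31) had the higher response in the arrays labelled SUP-B8. For SNTG2-AS1 (1.27), CD96 (1.20), RHOBTB3 (0.76), NKAIN4 (0.64) and RHOU (0.52) both NALM-6-labelled means lay below the medians, as did the GSK126 mean there for COL27A1 (1.13), so the response of that line was not measured. SMCO4 (0.98), TMOD2 (0.65) and RHOU lay below the medians under DMSO in the arrays labelled SUP-B8, and CDC42EP3 (1.22) and PLAGL1 (1.03) under both treatments. MAN1A1 (-0.87) rose more in the arrays labelled NALM-6. KANK2 (-0.61), CYSLTR1 (-0.59), EBI3 (-0.42), NIBAN1 (-0.29), PCYOX1 (-0.28) and OCIAD2 (-0.23) had the lower response in SUP-B8-labelled arrays, with CYSLTR1, EBI3 and NIBAN1 below the medians there, and OCIAD2 below them under GSK126.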

How the results depend on the processing

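With an intensity-trended robust prior 777 genes were called (504 higher, 273 lower) in place of 296, 924 probe sets (679 and 245) in place of 220, and 121 genes with 2 or more called probe sets in place of 22. With only the 4 arrays labelled SUP-B8 the counts were 191 (18 lower), 48 (48 and 0) and 5. Without a filter on dim probe sets 160 genes were called (146 and 14). With only probe sets above the median on 2 arrays, 385 were called (335 and 50), in 52 genes. With each array centred on its median 306 probe sets were higher, and 36 genes held 2 or more. Same-numbered replicates did not deviate together strongly (correlations of -0.199 to 0.130). This cannot show whether the numbers pair the samples, and the labels do not say. With the replicate number as a block, 202 genes (23 lower) and 140 probe sets (132 and 8) were called, and 12 genes held 2 or more. Leaving out 1 array gave 27 to 217 genes, 24 to 193 higher and 3 to 24 lower. It gave 21 to 115 probe sets, 19 to 110 higher and 0 to 5 lower, and 2 to 12 genes with 2 or more. Probe sets that crossed the medians upward numbered 286 to 399 and downward 259 to 392, since fewer arrays then had to agree. The called differences of responses numbered 2346 to 4134 over all alternatives, against 3343. No named gene reversed: of the comparisons of named genes and probe sets with an alternative, 1934 kept their side of the threshold, 670 were no longer past it and 22 came past it. Of 51 named genes called in the gene fit, 14 were called in all 8 omissions and 36 lost their call without GSK126 replicate 1 labelled SUP-B8. The causes were not tested. Signal below the array medians limits what can be said of silent genes.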
